A study of Mus musculus with 10 samples.

Results

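Transporters of bile acids and other organic anions were followed in livers that had lost the histone variant H3.3. They were selected by gene symbol, with earlier results of these data known, as 10 of the 55421 genes in the count table. Slc10a1, Slco1a1, Slco1a4, Slco1b2 and Slco2b1 take up solutes from the blood. Abcb11 and Abcc2 export solutes into bile, and Abcc3 and Abcc4 return solutes to the blood. Abcb4, which supplies phosphatidylcholine to bile, is counted with the canalicular exporters. Poly(A) RNA-seq was performed on whole livers of 10 male mice, which had received AAV8 by retro-orbital injection at 6 months of age and were examined 3 weeks later. The KO group comprised 4 mice homozygous for floxed H3f3a and H3f3b, the genes that encode H3.3, which were injected with AAV8 Tbg-Cre. Tbg is a hepatocyte promoter, so that Cre, and with it the deletion, is directed to hepatocytes and other liver cells keep both genes. There were 2 kinds of control. The WT Cre controls were 3 wild-type mice given the same Cre virus. The MCS controls were 3 floxed mice given AAV8 Tbg-MCS, which carries no Cre. The floxed mice were C57BL/6. The labels give HIRA fl/fl as the genotype of the floxed mice, while their titles name H3f3a and H3f3b, and grouping was by title.

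Bile acids circulate between liver and intestine. Hepatocytes extract them from sinusoidal blood through sodium-dependent (Slc10a1) and sodium-independent (Slco family) carriers, conjugate them, and pump them across the canalicular membrane by ATP-driven transporters, which sets bile flow. Efflux pumps of the basolateral membrane return bile acids and conjugates to blood and are known for their induction in cholestasis.

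Control libraries held 20862860 to 26096141 counts and KO libraries 14998426 (KO 1) to 23619487. H3f3a stood at 25.7% to 30.6% and H3f3b at 24.9% to 35.4% of their control means in the KO livers, in whole tissue. Of the hepatocyte markers, 1 of 9 tested was higher and 5 were lower in KO than in all controls (19.7% and 16.6% of all genes), and their summed level was 115372 to 165281 CPM (counts scaled to the normalized library size) in the controls and 94459 to 108245 CPM in KO. All 10 markers of Kupffer cells were higher in KO, with sums of 248 to 468 CPM in the controls and 579 to 1257 CPM in KO. For stellate cells 9 of 10 markers were higher (216 to 276 against 495 to 789 CPM). For lymphocytes 8 of 10 were higher (12.1 to 16.1 against 22.6 to 129 CPM). Ptprc, listed as pan-immune in the methods of the study, and Jchain had the highest KO means of the lymphocyte list (29.2 and 41.3 CPM). Jchain overlapped between the groups, and Cd79a and Ms4a1 did not pass the test. For endothelial cells 2 of 10 were higher (270.2 to 350.2 against 295 to 536 CPM) and for cholangiocytes 2 of 9 (51.4 to 82.4 against 74.0 to 93.0 CPM). Both shares were near the 19.7% of all genes, and both sums overlapped between the groups. These marker values accompany every KO difference given below, and their part in the results was not tested. In bulk tissue fewer hepatocytes and less RNA per hepatocyte cannot be told apart.

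All 10 transporters passed the filter of 10 counts summed over the livers. Against all 6 controls, 4 of the 5 uptake carriers and Abcc3 were lower in KO, Slco1a1 and the canalicular exporters did not pass the test, and Abcc4 was higher. By the quasi-likelihood test of edgeR, with p-values adjusted over all 22449 genes tested and 0.05 as the threshold, 5 of the 10 were lower (Slc10a1, Slco1a4, Slco1b2, Slco2b1 and Abcc3), compared with 16.6% of all genes. Abcc4 alone among the 10 was higher, compared with 19.7% of all genes. With an absolute log2 fold change over 1 as a second condition (DEG), 4 were lower and 1 was higher, where 5.79% and 12.9% of all genes were. The KO and control livers did not overlap for 3 transporters that were lower and for 1 that was higher, as for 12% and 12.5% of all genes. The median log2 fold change of the 10 was -0.93, and that of all genes was 0. Since the 10 were chosen with earlier results of these data known, the shares are set side by side as a description.

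**Figure D1:**
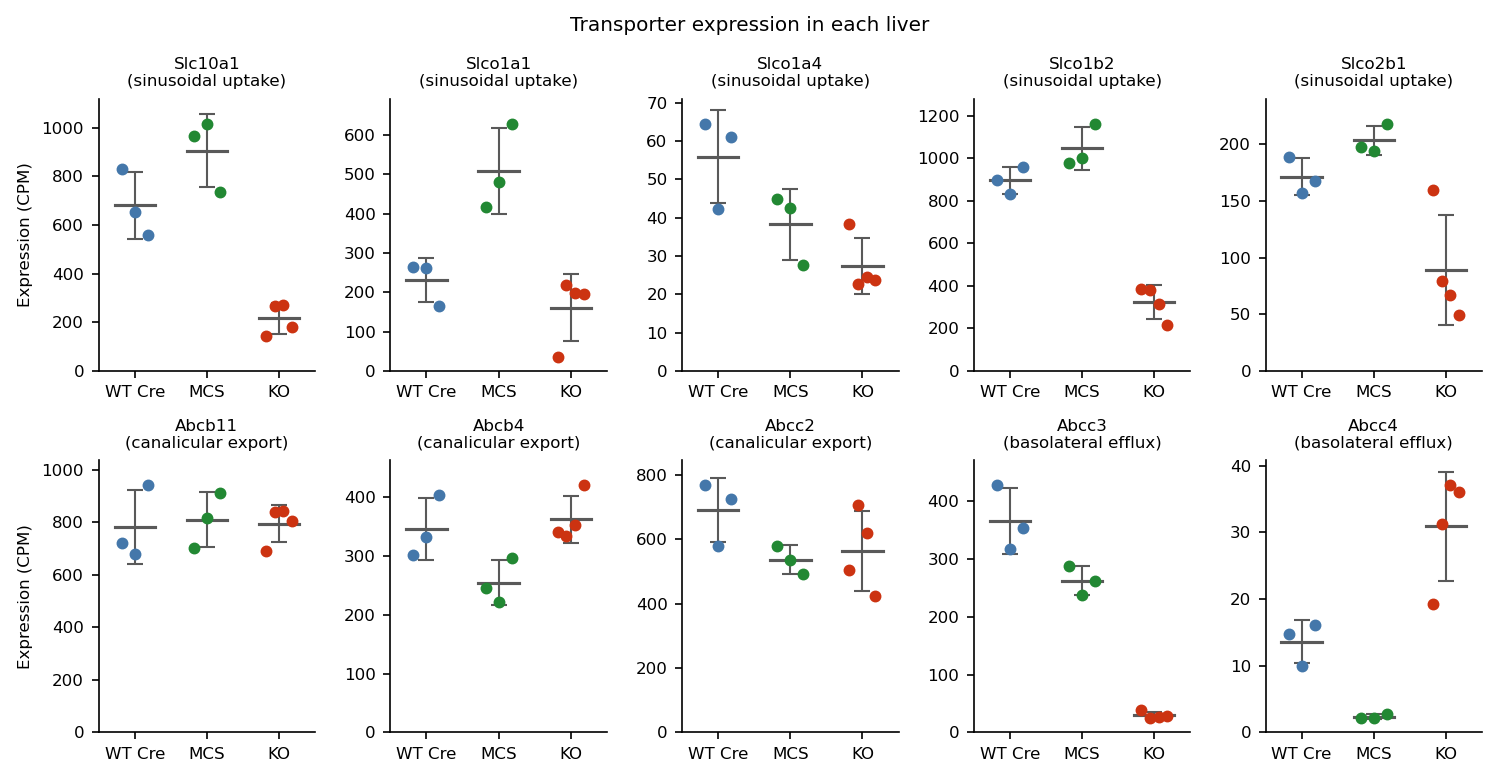
Expression of each transporter in CPM (vertical axis, from 0) in every liver of the WT Cre (blue), MCS (green) and KO (red) groups. Points are livers, horizontal lines are means and bars are SD. For Slc10a1, Slco1b2 and Abcc3 all KO livers lie below all controls, and for Abcc4 all lie above.

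Slc10a1 encodes NTCP, the sodium-dependent carrier that performs most uptake of conjugated bile acids. The gene spans chromosome 12, 80953183 to 80968705 (mm10, minus strand). Its expression was 828.7, 652 and 559 CPM in the WT Cre controls, 965, 1016 and 735.5 CPM in the MCS controls, and 143, 267, 273 and 181 CPM in KO 1 to 4. Every KO liver was below the lowest control. The means were 216 ± 64.3 CPM (SD, n = 4) in KO and 793 ± 178 CPM (SD, n = 6) in the controls, so that KO retained 27.2% of the control level. This corresponds to a log2 fold change of -1.88 with an SE of 0.225 (edgeR adjusted p = 5.61e-05). It was -1.65 against WT Cre (adjusted p = 0.000389) and -2.07 against MCS (adjusted p = 7.98e-05).

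Slco1b2 encodes OATP1B2, a sodium-independent carrier of unconjugated bile acids, bilirubin and drugs. Together with Slco1a4 and Slco1a1 it lies within 317 kb of chromosome 6, at 141629518 to 141686646 on the plus strand. Expression was 897, 833 and 962 CPM in WT Cre, 979.5, 1002 and 1164 CPM in MCS, and 385, 383, 313 and 217 CPM in KO 1 to 4. Again the groups were fully apart. KO livers held 324 ± 79.0 CPM (SD, n = 4) against 973 ± 112 CPM (SD, n = 6), a log2 fold change of -1.58 (SE 0.168, adjusted p = 2.15e-05). Both kinds of control gave a similar size, with -1.47 against WT Cre (adjusted p = 0.000149) and -1.69 against MCS (adjusted p = 4.74e-05).

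The other members of the family were less uniform. Slco1a4 (OATP1A4, chromosome 6, 141805440 to 141856199, minus strand), a carrier of steroid conjugates and cardiac glycosides, measured 64.6, 42.2 and 61.2 CPM in WT Cre, 44.8, 42.5 and 27.7 CPM in MCS, and 38.3, 22.7, 24.6 and 23.8 CPM in KO 1 to 4. KO 1 was within the range of the MCS controls and the other KO livers were below all controls. The log2 fold change was -0.79 against all controls (SE 0.234, adjusted p = 0.0214). Against WT Cre alone it was -1.04 (adjusted p = 0.00627), and against MCS it was -0.49 and did not pass (adjusted p = 0.122). Without KO 1 the latter was -0.69 (adjusted p = 0.0159), and without MCS 3 it was -0.68 (adjusted p = 0.0437). The call against all controls was lost when KO 2, KO 3 or KO 4 was left out, with an adjusted p of up to 0.0774.

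Slco2b1 (OATP2B1, chromosome 7, 99657804 to 99711340, minus strand) transports steroid sulfates and drugs. It was measured at 189, 157 and 168 CPM in WT Cre, 198, 194 and 218 CPM in MCS, and 159, 79.5, 66.7 and 49.6 CPM in KO 1 to 4. KO 1 exceeded the lowest control and the other KO livers lay far below the controls. The log2 fold change was -1.08 against all controls (SE 0.275, adjusted p = 0.0106), -1.20 against MCS (adjusted p = 0.0188) and -0.95 against WT Cre, where it did not pass (adjusted p = 0.0523). Leaving out KO 1 brought the last value to -1.39 (adjusted p = 1.86e-05). The call against MCS was lost without KO 2, KO 3 or MCS 3, with an adjusted p of 0.051 to 0.052. An antisense gene on the other strand, Gm15635, shares 471 exon bases with Slco2b1, and the strand setting of the counting was not stated.

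Slco1a1 (OATP1A1, chromosome 6, 141907282 to 141946962, minus strand) is a male-predominant carrier of bile acids and steroid conjugates in mouse liver. Its values were 265, 262 and 166 CPM in WT Cre, 417, 480.3 and 629 CPM in MCS, and 34.3, 218, 197 and 195 CPM in KO 1 to 4. The controls themselves were split, with every MCS liver above every WT Cre liver. KO 1 was far below the rest, and the other KO livers fell within the WT Cre range. The log2 fold change against all controls was -1.20 and did not pass (SE 0.536, adjusted p = 0.113). It passed against MCS (-1.66, adjusted p = 0.0418) and not against WT Cre (-0.52, adjusted p = 0.507). The call against MCS was lost without any KO liver other than KO 1, without any MCS liver, and without WT Cre 1 or 2, with an adjusted p of up to 0.105. WT Cre and MCS controls differed by a log2 fold change of -1.14 that did not pass (adjusted p = 0.537) but did with KO 1 left out of the shared fit (adjusted p = 0.0118).

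The promoters of 9 of the 10 genes were found in RefSeq (GRCm38.p6), with Abcc3 the exception. They are shown for Slc10a1 and Slco1b2, which were lower in each comparison, Abcc4, which was higher in each, and Abcb11, which passed in none. The search covered 250 bases before to 50 bases after the start, on both strands, and the 250 bases before the start are printed 5′ to 3′ along the gene. Capitals mark matches, which are a description of the letters only.
Slc10a1, chr12:80968706-80968955, minus strand: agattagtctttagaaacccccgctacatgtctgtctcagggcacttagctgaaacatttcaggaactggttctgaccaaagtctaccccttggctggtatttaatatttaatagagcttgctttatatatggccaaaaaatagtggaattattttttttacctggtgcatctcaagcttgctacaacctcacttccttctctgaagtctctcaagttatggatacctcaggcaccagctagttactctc
Slco1b2, chr6:141629268-141629517, plus strand: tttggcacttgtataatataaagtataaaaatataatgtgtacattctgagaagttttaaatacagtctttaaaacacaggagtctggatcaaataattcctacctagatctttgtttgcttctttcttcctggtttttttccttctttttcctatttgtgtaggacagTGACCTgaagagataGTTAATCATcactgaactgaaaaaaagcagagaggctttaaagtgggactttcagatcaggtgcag
Abcb11, chr2:69342617-69342866, minus strand: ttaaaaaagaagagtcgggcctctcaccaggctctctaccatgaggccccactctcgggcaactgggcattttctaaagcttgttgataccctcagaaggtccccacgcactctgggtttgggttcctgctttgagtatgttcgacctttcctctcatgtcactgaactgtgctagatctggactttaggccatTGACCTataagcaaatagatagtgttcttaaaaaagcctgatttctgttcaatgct
Abcc4, chr14:118706220-118706469, minus strand: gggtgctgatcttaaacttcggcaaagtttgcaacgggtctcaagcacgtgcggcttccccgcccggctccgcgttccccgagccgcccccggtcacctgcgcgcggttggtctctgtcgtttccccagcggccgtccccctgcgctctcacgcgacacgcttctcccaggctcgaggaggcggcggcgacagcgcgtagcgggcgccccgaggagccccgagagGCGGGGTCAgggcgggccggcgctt

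The letters searched were the HNF4 motif CAAAGTCCA, the nuclear receptor site AGGTCA, the HNF1 core GTTAATNAT and the NRF2 element TGACNNNGC, and no matches overlapped. Slc10a1 had no match. Slco1b2 held the AGGTCA site (reverse strand, first base 81 bases before the start) and the HNF1 core (66 bases before the start), which is present in 0.808% of 32544 promoter windows. Abcb11 held the AGGTCA site 56 bases before the start. That site was found in 4 of the 9 promoters, Slco1a1, Slco1b2, Abcb11 and Abcc2, and in 16.2% of all windows. Abcc4 held the NRF2 element on the reverse strand 25 bases before the start, as Abcc2 did on the forward strand at 98 bases, and 12.4% of all windows did. The RefSeq start of Abcc2 lies 116 bases after its GENCODE start, so both of its matches fall within the GENCODE gene. The HNF4 motif occurred in none of the 9 and in 0.479% of all windows. Slco1b2 and Abcb11 share the AGGTCA site and had log2 fold changes of -1.58 and 0 against all controls. Abcc2 and Abcc4 share the NRF2 element and had -0.12 and 1.95. The part of these sites in expression was not tested.

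The canalicular exporters gave a different picture. Abcb11 encodes BSEP, the bile salt export pump (chromosome 2, 69238282 to 69342616, minus strand). Its values were 719.9, 680.3 and 941 CPM in WT Cre, 703, 815 and 911 CPM in MCS, and 691, 838, 844 and 806 CPM in KO 1 to 4, and the groups overlapped throughout. The means were 795 ± 71.3 CPM (SD, n = 4) in KO and 795 ± 112 CPM (SD, n = 6) in the controls. The difference was too small for a direction to be given, since its log2 value was 0 with an SE of 0.126 (adjusted p = 0.998) and its sign turned with the scaling. Scaled to library size only, which moved the median of all genes from 0 to 0.17, it was 0.18 (adjusted p = 0.297). The antisense gene Gm13613 shares 136 exon bases with Abcb11.

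Abcc2 encodes MRP2, the canalicular pump for bilirubin glucuronides and glutathione conjugates (chromosome 19, 43782192 to 43840740, plus strand). It stood at 767, 579.7 and 725.5 CPM in WT Cre, 579.6, 536 and 490 CPM in MCS, and 503, 706, 617 and 424 CPM in KO 1 to 4. KO values extended on both sides of the MCS range, and KO 4 was the lowest of the 10 livers. The log2 fold change was -0.12 (SE 0.166, adjusted p = 0.605) against all controls, -0.30 against WT Cre (adjusted p = 0.219) and 0.07 against MCS (adjusted p = 0.787). None of these passed, and the first was 0.04 with library size alone.

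Abcb4 encodes MDR2, the flippase that supplies phosphatidylcholine to bile (chromosome 5, 8893717 to 8959231, plus strand). Its expression was 301, 333 and 403 CPM in WT Cre, 245, 222 and 297 CPM in MCS, and 341, 335, 353 and 420.5 CPM in KO 1 to 4. All KO livers were above the MCS controls and most were within the WT Cre range. Accordingly, the log2 fold change was 0.51 against MCS (SE 0.145, adjusted p = 0.0183), 0.07 against WT Cre (adjusted p = 0.768) and 0.27 against all controls (adjusted p = 0.193). The call against MCS was lost without MCS 1 (adjusted p = 0.0706) or MCS 2 (adjusted p = 0.0938).

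Of the basolateral pumps, Abcc3 showed the largest difference among the 10 against all controls. It encodes MRP3, which exports glucuronides and bile acids to blood (chromosome 11, 94343295 to 94392997, minus strand). Expression was 427, 316 and 353 CPM in WT Cre, 288, 238 and 261 CPM in MCS, and 38.0, 25.6, 26.2 and 29.1 CPM in KO 1 to 4. The lowest control was thus far above the highest KO liver. The means were 29.7 ± 5.72 CPM (SD, n = 4) and 314 ± 68.8 CPM (SD, n = 6), a 10.6-fold lower level in KO, with a log2 fold change of -3.40 (SE 0.195, adjusted p = 1.46e-07). Against WT Cre it was -3.62 (adjusted p = 8.87e-08) and against MCS -3.14 (adjusted p = 2.22e-07).

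Abcc4 encodes MRP4, which exports bile acids together with glutathione and also cyclic nucleotides (chromosome 14, 118482692 to 118706219, minus strand). It was measured at 14.8, 9.98 and 16.1 CPM in WT Cre, 2.20, 2.10 and 2.79 CPM in MCS, and 19.2, 31.3, 37.1 and 36.1 CPM in KO 1 to 4. The 3 groups formed separate ranges, with MCS lowest and KO highest. KO exceeded WT Cre with a log2 fold change of 1.18 (SE 0.230, adjusted p = 0.00302) and MCS with 3.72 (SE 0.271, adjusted p = 4.98e-06). WT Cre exceeded MCS by 2.53 (SE 0.272, adjusted p = 0.00117), a 5.79-fold difference between controls. WT Cre mice differ from MCS mice both in carrying Cre and in lacking the floxed alleles, and these cannot be told apart. The pooled controls combine these levels, and the value against all 6 was 1.95 with an SE of 0.629 (adjusted p = 0.0388). That call was lost without WT Cre 2, without any MCS liver, and without KO 2, KO 3 or KO 4, with an adjusted p of 0.0525 to 0.0917.

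**Figure D2:**
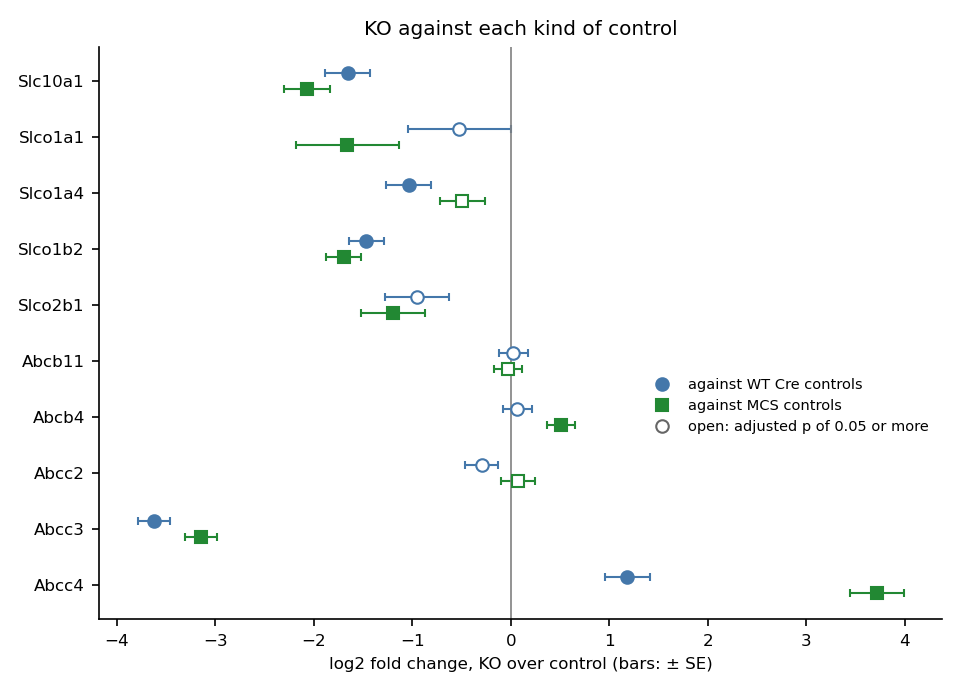
Log2 fold change of each transporter in KO (horizontal axis) against the WT Cre (blue circles) and MCS (green squares) controls, with SE as bars. Filled symbols passed the adjusted p of 0.05 and open symbols did not. Abcc3 is at -3.62 and -3.14, Abcb11 is at 0.03 and -0.03, and the control groups give different values for Slco1a1 and Abcc4.

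By kind of control, 4 of the 10 transporters were lower and 1 was higher in KO than in WT Cre, where 13.1% and 15.3% of all genes were. In KO against MCS, 5 were lower and 2 were higher, compared with 14.8% and 17.3% of all genes. Slc10a1, Slco1b2 and Abcc3 were lower and Abcc4 was higher in each comparison, which share the KO livers. The median log2 fold change of the 10 was -0.73 against WT Cre and -0.84 against MCS. Between the controls 1 of the 10 (Abcc4) was higher in WT Cre and none was lower by edgeR, where 0.441% and 0.486% of all genes were. At an unadjusted p under 0.05, 4 were higher (Abcc4, Abcc3, Abcb4 and Slco1a4) and 0 were lower, where 5.51% and 5.17% of all genes were, and DESeq2 and voom also called 0 lower after adjustment. The comparison of the controls did not pass for Slc10a1 (-0.41, adjusted p = 0.606), Abcc3 (0.48, adjusted p = 0.275) or Abcb4 (0.44, adjusted p = 0.279).

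To compare levels between genes, CPM was divided by the kilobases (kb) of merged exons. In both kinds of control Slc10a1 ranked first per length, with 309 ± 62.3 CPM per kb (SD, n = 3) in WT Cre and 412 ± 68.0 (SD, n = 3) in MCS, and its range did not overlap that of Slco1b2, which came next. Slco1b2 stood at 182 and 213, and Abcb11 was next at 152 and 157. In WT Cre the ranges of Slco1b2 and Abcb11 overlapped. Abcc4 was last at 2.13 and 0.37.

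The order changed in KO. Abcb11 ranked first there with 154 ± 13.8 CPM per kb (SD, n = 4), above the range of Slc10a1 at 98.2 ± 29.2. In deposited FPKM Abcb11 also ranked first, but the ranges of Abcb11 (149 to 186) and Slc10a1 (78.0 to 157) overlapped. Slc10a1, Abcc2 (65.9) and Slco1b2 (65.8) had overlapping ranges. Abcb4 followed at 38.6, Slco1a1 at 30.5 and Slco2b1 at 14.9. Abcc3 (5.21), Abcc4 (4.84) and Slco1a4 (4.27) formed the low end and did not differ beyond their spread. Merged exons overstate the length of genes with several transcript forms, and the deposited FPKM of Abcb4 was 55.2 in the controls where the level per merged length was 32.0.

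Summed per length, the 5 uptake carriers reached 519 to 796 CPM per kb in the controls and 175 to 257 in KO. The 3 canalicular exporters, which include the phosphatidylcholine flippase Abcb4, summed to 231 to 311 in the controls and 229.5 to 281 in KO. The ratio of the uptake sum to the canalicular sum was 1.67 to 2.48 in WT Cre, 2.75 to 3.28 in MCS and 0.698 to 0.915 in KO. The uptake sum therefore exceeded the canalicular sum in every control and in no KO liver, also in deposited FPKM, where the ratio was at least 1.65 in the controls and at most 0.906 in KO. Within the uptake sum, Slc10a1 took 45.8% to 58.1% in the controls and 35.6% to 51.7% in KO, and Slco1b2 took 25.6% to 37.6% and 25.1% to 42.8%.

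The basolateral pair shifted from Abcc3 towards Abcc4. The level of Abcc3 per length was 24.6 to 35.6 times that of Abcc4 in WT Cre and 105 to 147 times in MCS. In KO 1 to 4 the ratio was 2.22, 0.917, 0.793 and 0.903, so that both pumps were at similar levels in all KO livers but KO 1. Which of them was higher depended on the scale, since the ratio in deposited FPKM was 2.68, 1.18, 0.915 and 1.28 in KO 1 to 4. The sum of both was 42.1 to 77.3 CPM per kb in the controls and 9.39 to 10.8 in KO.

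**Figure D3:**
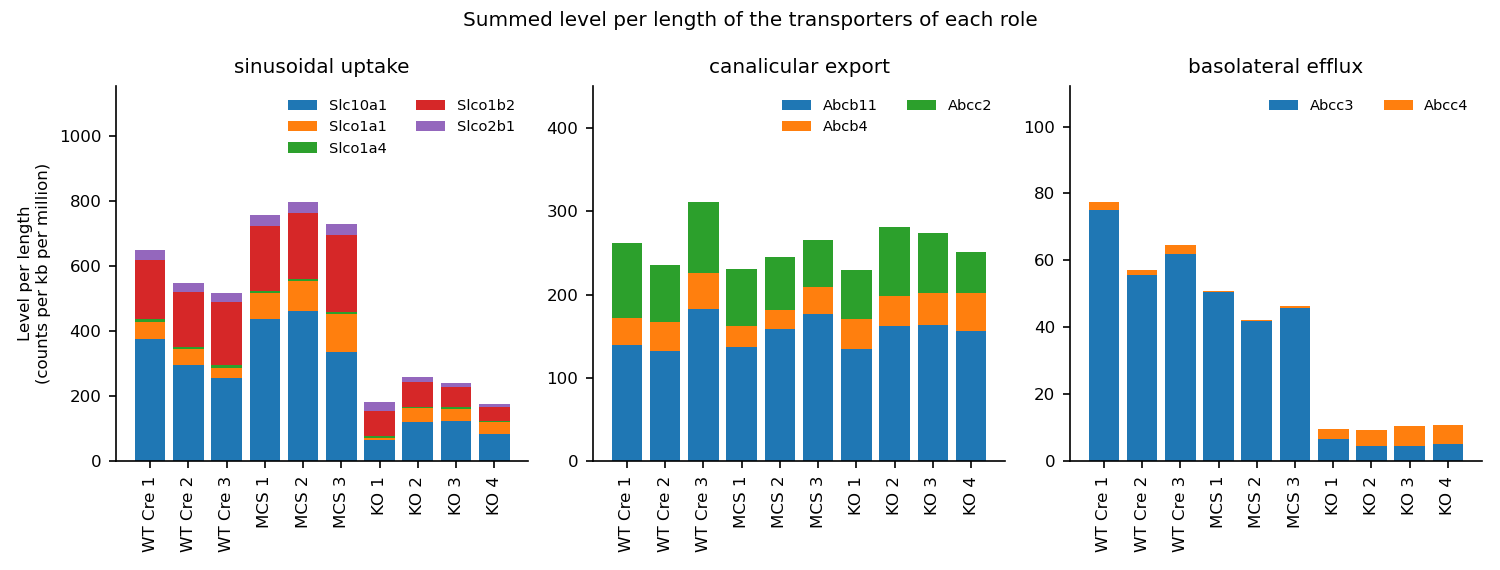
Level per length in CPM per kb (vertical axis) in each liver, stacked by gene, for uptake, canalicular and basolateral transporters; the vertical scales differ between panels. Uptake sums are 519 or more in the controls and 257 or less in KO, whereas canalicular sums overlap.

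KO 1 stood apart from the other KO livers in the uptake family. For Slco1a1 it had 9.29% of the control mean, where KO 2 to 4 had 52.7% to 59%. For Slco2b1 it had 85.1% against 26.5% to 42.5%, and for Slco1a4 81.2% against 48.2% to 52.2%. For Slc10a1, Slco1b2 and Abcc3 it was at 18%, 39.5% and 12.1%, below all controls like the other KO livers. Its Abcc4 level was the lowest of the KO livers at 19.2 CPM, and it had the lowest total count of all livers. Its sums of Kupffer cell (579 CPM), lymphocyte (22.6 CPM), stellate cell (494.5 CPM) and endothelial (295 CPM) markers were the lowest and its hepatocyte sum (108245 CPM) the highest among KO livers, and their part in these differences was not tested. Without KO 1 the log2 fold changes against all controls were -1.72 for Slc10a1, -1.68 for Slco1b2 and -3.54 for Abcc3.

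**Figure D4:**
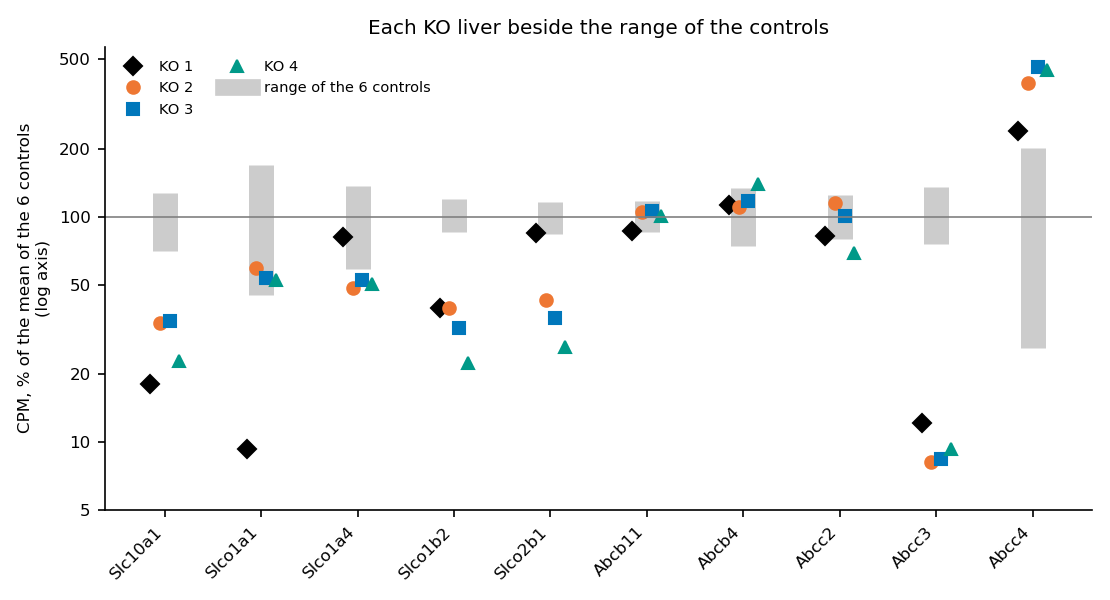
CPM of each KO liver as a percentage of the mean of the 6 controls (vertical log axis), with grey bars for the range of the controls. KO 1 (black diamonds) is at 9.29% for Slco1a1 and 85.1% for Slco2b1, apart from the other KO livers, and all KO livers are at 12.1% or less for Abcc3.

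Other genes of bile acid handling were counted from lists written for these transporters, with earlier results of these data known. Of the other carriers, pumps and acyl-CoA synthetases, 17 of 18 were tested, 8 were higher and 5 were lower in KO than in all controls, where 19.7% and 16.6% of all genes were. Slc10a2 encodes the apical sodium-dependent bile acid transporter, known from ileum and cholangiocytes. It averaged 440.3 ± 244 CPM in KO (SD, n = 4) and 53.6 ± 32.8 CPM in controls (SD, n = 6), a log2 fold change of 3.04 (adjusted p = 0.000731). Its values were 275.5, 363, 321 and 802 CPM in KO 1 to 4 and at most 119 CPM in the controls. The summed cholangiocyte markers were 63.1 to 82.4 CPM in WT Cre, 51.4 to 65.4 CPM in MCS and 74.0 to 93.0 CPM in KO. Of the 9 tested, 2 were higher in KO than in all controls (19.7% of all genes were). Against MCS 4 were higher (17.3% of all genes were), with none lower by edgeR. The part of these markers in the result for Slc10a2 was not tested.

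Slc27a5, the bile acid-CoA ligase that starts conjugation, was at 1068 ± 106 CPM (SD, n = 6) in the controls and fell to 258 ± 88.4 CPM (SD, n = 4) in KO, with a log2 fold change of -2.05 (adjusted p = 1.14e-05). Slc51a, a subunit of the basolateral bile acid exporter, was scarce, with 8 to 19 counts per control and 0 to 7 per KO liver (adjusted p = 0.0234). Among efflux pumps, Abcc1 (MRP1) rose from 1.76 to 6.06 CPM (log2 fold change 1.80, adjusted p = 0.000386). The prostaglandin carrier Slco2a1 rose from 104 to 242.5 CPM (1.22, adjusted p = 0.000262). Slco1a6, a neighbour of Slco1a1 on chromosome 6, had 0 to 2 counts in each control and 4 to 27 in each KO liver (adjusted p = 9.62e-05). On that chromosome Slco1c1, named here after its value was seen, was also higher (1.93, adjusted p = 0.000519) at 131 counts over all livers, while Slco1b2 and Slco1a4 were lower.

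Of 11 other canalicular proteins 2 were higher and 6 were lower, against 19.7% and 16.6% of all genes. Aqp8, a water channel of the canalicular membrane, was at 309 ± 47.6 CPM (SD, n = 6) in the controls and fell to 82.7 ± 31.2 CPM (SD, n = 4) in KO, with a log2 fold change of -1.90 (adjusted p = 3.58e-05). Abcb1a, a drug efflux pump and close relative of Abcb4, rose from 4.18 to 13.8 CPM (1.71, adjusted p = 0.00574), and its groups overlapped. Of 15 genes for canalicular scaffold and trafficking 4 were higher and 3 were lower, shares near the 19.7% and 16.6% of all genes. Ezr, which encodes the membrane linker ezrin, rose from 4.70 to 14.5 CPM (1.63, adjusted p = 0.00018), and Myo5b, a motor for apical vesicles, rose from 26.4 to 55.3 CPM (1.07, adjusted p = 4.41e-05).

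Of 20 nuclear receptors and other regulators 1 was higher and 7 were lower, compared with 19.7% and 16.6% of all genes. Cux2, a transcription factor of female-biased expression in mouse liver, rose with a log2 fold change of 5.40 (adjusted p = 1.12e-06), and its values were 0.204 to 1.15 CPM in the controls and 18.2 to 30.4 CPM in KO. Nr1i3 encodes CAR, a xenobiotic receptor that induces transporter genes, and it fell from 84.9 to 33.6 CPM (-1.34, adjusted p = 0.00237). Ahr, the aryl hydrocarbon receptor, fell from 37.0 to 17.2 CPM (adjusted p = 0.00011), and Foxa2, a transcription factor of bile acid homeostasis, fell from 33.5 to 15.8 CPM (adjusted p = 0.00235). Nr1h4, which encodes the bile acid receptor FXR, had a log2 fold change of -0.25 (adjusted p = 0.157), its target Nr0b2 (SHP) one of -0.31 (adjusted p = 0.622) and Hnf4a, a master regulator of hepatocytes, one of -0.55 (adjusted p = 0.0763). None of these last values passed. Against MCS alone Hnf4a was lower (-0.75, adjusted p = 0.0336), and against WT Cre it did not pass (-0.31, adjusted p = 0.371). Hnf4a was at 374, 448, 400.4 and 772 CPM in KO 1 to 4 and at 590.4 to 1074 CPM in the controls, so that KO 4 was within the control range and the other KO livers were below it.

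**Figure D5:**
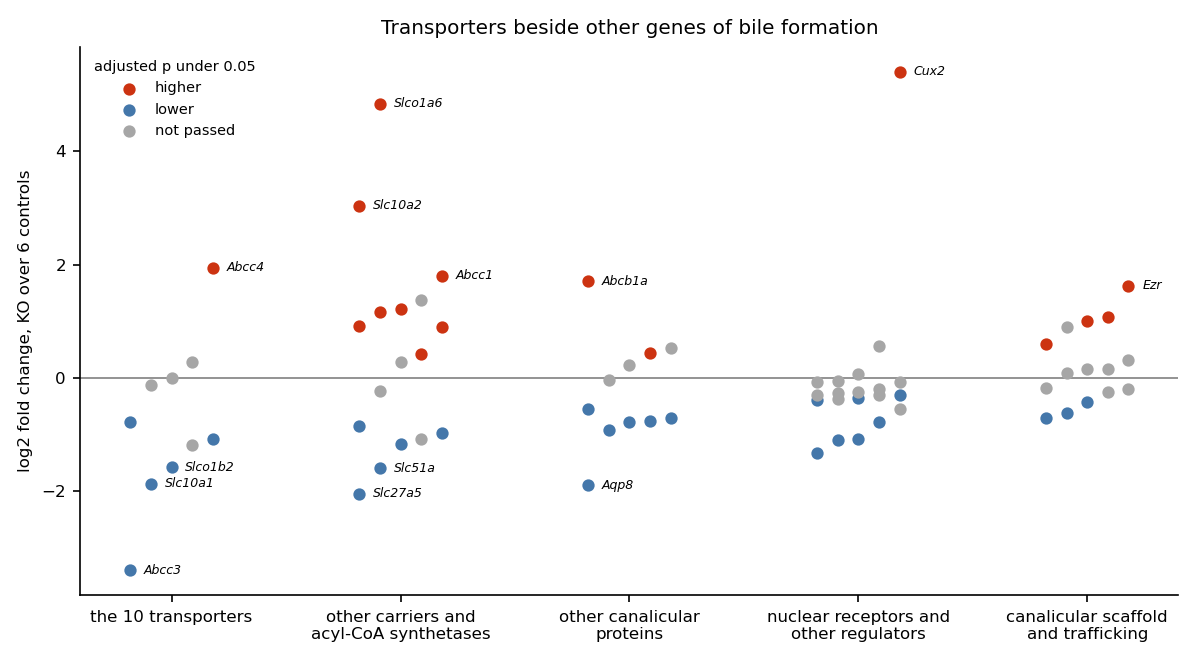
Log2 fold change of KO over the 6 controls (vertical axis) for the transporters and for the 4 further lists, with one point per gene tested. Red genes were higher and blue genes lower at an adjusted p under 0.05, and grey genes did not pass. Slco1a6 rests on 0 to 2 counts per control.

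The genes whose log2 CPM followed that of a transporter most closely over the 10 livers were sought among 13209 genes with a mean of at least 1 CPM. The points share the contrast of KO with control, so the coefficients are a description. For Slc10a1 they were Cyp4f13, Csnk2b and Sult2a8, each with a Pearson r of 0.986. For Abcb11, which did not pass in any comparison, they were Tmtc3 (0.942), Hax1 (0.892) and Arhgap32 (0.883). For Abcc4 they were Sertad3 (0.982), BC005537 (0.979) and Slc16a5 (0.978).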

How the data were processed

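RNA was isolated from whole liver, and directional poly(A) libraries were sequenced from 4 KO, 3 WT Cre and 3 MCS livers. Per the methods of the study, the authors used Trim Galore for trimming, STAR for alignment to mm10 and HOMER for gene counts. The submitters' processing notes also name HTSeq and Cufflinks, without their roles. The deposited counts are whole numbers without normalization. The deposited FPKM values (fragments per kilobase, scaled to library depth) were used in alternatives only, with blank cells read as 0. Whether counting used strand, and what was done with multimapping reads, is not given in the sources used here. Of the 50-base words of a transporter's exons, 0% (Slco1b2, Abcc3) to 5.89% (Slco2b1) also occur in other genes, on either strand. For Slco2b1 5.38% are shared with the overlapping antisense gene Gm15635, and for Abcb11 1.68% with the overlapping antisense gene Gm13613. Among relatives, Slco1a1 shared 1.58% with Slco1a4, Slco1a4 1.56% with Slco1a5 and Abcb4 1.36% with Abcb1a. Multimapping reads could be split between these relatives.

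KO columns were matched to samples by number, whereas controls 1 to 3 were taken as WT Cre and 4 to 6 as MCS from the number in their library names. The comparison with all 6 controls does not depend on this match, and every value for 1 kind of control does. No sample column was left unmapped. Replicates were compared by chi-square per degree of freedom, and all pairs had at least 10.3 times the variance of sampling noise. The labels name single mice only through replicate numbers, so p-values measure the spread between these samples. No batch is given in the labels.

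Genes with at least 10 counts over the 10 livers were tested with edgeR 4.0.16 (R 4.3.3), using TMM normalization, robust quasi-likelihood F tests (two-sided) and Benjamini-Hochberg adjustment. KO was compared with the 6 controls in a fit of 2 groups, and a fit of 3 groups with shared dispersion gave the other comparisons. SE was obtained as the log2 fold change over the root of F. The procedure was tested on simulated data. CPM used TMM-adjusted library sizes, with a prior count of 2 for log2 values. Gene coordinates and exons came from GENCODE M21 and promoters from RefSeq.

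Alternatives were DESeq2 1.42.0, its size factors, library size alone, limma 3.58.1 (voom, and log2 of FPKM plus 1 or 0.1), other filters, a replicate block, and leaving out each liver. Outside the 10 transporters, genes of the lists were named where they passed with an absolute log2 fold change over 1 against all controls (up to 6 per list), and Nr1h4, Nr0b2 and Hnf4a were named whatever their values. Rdx and the single lymphocyte markers were named after their values were seen. The transporters and lists were chosen with earlier results of these data known.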

Additional observations from a re-analysis of the deposited data

Results flagged for a closer look

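Each transporter was tested for a sample far from the others of its group (Dixon's test, 20 tests in all). The groups were the 4 KO livers and the 6 controls, with both kinds of control pooled. Chance gives about 1 in 20, and 2 values were flagged, both from KO 1. Slco1a1 stood at 34.3 CPM in KO 1 and at 195 to 218 CPM in KO 2 to 4, and Slco1a4 at 38.3 CPM in KO 1 and at 22.7 to 24.6 CPM in KO 2 to 4. KO 1 was thus low for the first carrier and high for the second, although these genes are neighbours on chromosome 6. A difference between the controls also stood out. Abcc4 was higher in WT Cre than in MCS by a log2 fold change of 2.53 (edgeR adjusted p = 0.00117, higher in 3 of 3 WT Cre livers than in any MCS liver).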

How the results depend on the processing

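The 10 transporters were refitted under 19 alternatives in 4 comparisons. Of 760 values, 680 kept their direction and their side of the threshold, 37 lost the call, 11 gained one and 32 changed sign, none of them called in the first place. Slc10a1, Slco1b2 and Abcc3 passed in all 19 alternatives in each KO comparison, and Abcc4 did so against each kind of control but in 10 of 19 against all controls. Slco2b1 passed in all 19 against all controls, 15 against MCS and 7 against WT Cre, Slco1a4 in 11 against all controls and all 19 against WT Cre, Slco1a1 in 6 and Abcb4 in 17 against MCS. Where a call was lost or gained the cause was not tested.

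The number higher against all controls was 0 with no filter on low counts and 0 with the replicate block (Abcc4 at 1.86, adjusted p = 0.17). With no filter 3 were lower than in MCS. With log2(FPKM + 1) 0 were higher in WT Cre than in MCS (Abcc4 at 1.17, adjusted p = 0.0613). Leaving out 1 liver gave 0 to 1 higher against all controls, 1 to 2 higher and 3 to 6 lower against MCS, and 0 to 1 lower in WT Cre than in MCS. Deviations from the group means had an r of -0.039 to 0.111 over 9 pairs of same-numbered livers. Over 24 pairs of other numbers r was -0.154 to 0.194. With so few livers per group this cannot exclude pairing, and the main fit used none. The replicate block also lost Slco1a4 against all controls (adjusted p = 0.0533) and Slco1a1 against MCS (adjusted p = 0.117) and gained Slco2b1 against WT Cre (adjusted p = 0.0329).

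Sign changes concerned near-zero values. Abcb11 against all controls was 0.02 with DESeq2 size factors and with DESeq2, 0.182 with library size alone, 0.005 with voom, 0.008 with no filter, 0.015 with filterByExpr and 0.006 with either FPKM scale, and -0.042 to 0.061 leaving out 1 liver. Against MCS it was 0.23 with library size alone, 0.007 with either FPKM scale and -0.12 to 0.066 leaving out 1 liver. Against WT Cre it was -0.063 to 0.186 leaving out 1 liver. Between the controls it was 0.094 with library size alone, 0.002 with either FPKM scale and -0.202 to 0.04 leaving out 1 liver. Abcc2 was 0.043 against all controls with library size alone, and -0.043 to 0.19 against MCS leaving out 1 liver. Abcb4 against WT Cre was -0.002 with the replicate block and -0.023 to 0.197 leaving out 1 liver. Scaling to library size alone moved the share of higher genes among all called from 54.3% to 72.2%, and log2(FPKM + 1) gave 1266 DEGs over all genes against 4199.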
